A study of Rattus norvegicus with 4 samples.

Results

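The transcripts described here lie at 4 extracellular matrix genes: Lox, Matn3, Col1a1 and Col3a1. They were found by gene name in long noncoding RNA (lncRNA) tables of rat cortical astrocytes, where each of the 4 names matched 1 of the 20524 listed transcripts. The members were chosen by their counts in these same libraries, compared both by treatment and by replicate number. Their values are therefore given as a description, without a p-value. The standard error (SE) beside a member's fold change comes from the fit to these libraries and is not offered as a test.

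The study asked which lncRNAs change when astrocytes are preconditioned by a short, sublethal ischemia-like stress. Primary cortical astrocytes came from Wistar rats less than 24 h old and were grown on coverslips above neurons, with paraffin dots keeping the cell layers apart, so both groups shared their medium with neurons. The OGD group (2 libraries) was deprived of oxygen and glucose for 45 min, in glucose-free medium at 1% O2, and then kept for 24 h in normal medium and air. The control group (2 libraries) was untreated. The labels number the libraries 1 and 2 in each group but give neither the meaning of the number nor the number of separate cultures behind the replicates. A p-value here therefore measures the spread of these libraries alone, and that spread may be technical.

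The listed counts summed to 2646300 and 2513804 in the OGD libraries and to 2607020 and 2631684 in the control libraries. Of the 10 astrocyte marker names, 5 matched a listed locus. Their summed level was 64.4 and 33.8 CPM (counts scaled to a common library size) in OGD replicates 1 and 2, and 51.0 and 34.3 CPM in control replicates 1 and 2. Gfap, the astrocyte intermediate filament gene, was the highest of them, and Glul, the glutamine synthetase gene, had 0 counts in 3 of the 4 libraries. In bulk RNA, fewer cells of a type and less RNA per cell cannot be told apart.

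Fibrillar collagens are secreted as procollagen, hydroxylated on proline in the endoplasmic reticulum, trimmed outside the cell and then cross-linked. Col1a1 encodes the alpha 1 chain of type I collagen and Col3a1 the chain of type III collagen, which forms mixed fibrils with type I. Lox encodes lysyl oxidase, the copper enzyme that oxidises lysines of collagen and elastin so that fibrils cross-link, and it is a known target of hypoxia-inducible factor (HIF). Matn3 encodes matrilin-3, an adaptor protein of the cartilage matrix. In brain, fibrillar collagens are known mainly from the meninges and the vessel wall, whereas the astrocyte matrix is rich in proteoglycans and hyaluronan.

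The 4 listed transcripts are short fragments relative to their genes. The Lox transcript (NONRATT013819.2) is unspliced, 512 bases long, on chromosome 18 from 47512889 to 47513400. The Matn3 transcript (NONRATT024140.2) is also unspliced, 966 bases long, on chromosome 6 from 34090546 to 34091511. The Col1a1 transcript (NONRATT004764.2) is spliced, with 648 bases drawn from a span of 1752 bases on chromosome 10, 82758549 to 82760300. The Col3a1 transcript (NONRATT029361.2) is spliced as well, with 599 bases drawn from 759 bases on chromosome 9, 52038051 to 52038809. Positions are those of the tables, whose build is not certain, and the position within each gene was not determined. Each is listed as noncoding at a protein-coding gene. Whether the counting used the strand is not given in the sources used here, so reads from the messenger RNA may be among the counts.

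Of the 4 genes, Matn3 has an entry in the RefSeq table of promoters (build GRCr8). It is shown because Lox, Col1a1 and Col3a1 have no entry there. A hypoxia sequence was searched for because the treatment lowered oxygen. The treatment also removed glucose and was followed by 24 h in normal medium and air. Whether the sequence bears on the Matn3 level was not tested. The window holds the 250 bases before the annotated start of the gene, not of the listed transcript, chr6:37467479-37467728 on the plus strand. Capitals mark the core letters of the hypoxia response element.
Matn3 promoter: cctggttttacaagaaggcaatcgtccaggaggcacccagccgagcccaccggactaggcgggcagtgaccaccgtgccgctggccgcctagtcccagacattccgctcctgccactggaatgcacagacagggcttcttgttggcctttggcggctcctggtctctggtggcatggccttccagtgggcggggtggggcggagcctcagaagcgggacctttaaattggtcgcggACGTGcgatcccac

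The letters ACGTG were found at 1 place in this window when both strands were searched, on the plus strand from 14 to 10 bases before the start. They occur in 16.6% of 33469 rat promoter windows of this length. The other form of the core, GCGTG, had no match on either strand, and 25.9% of windows hold it. With both forms searched, 36.7% of windows hold at least 1 of them. GC content was 64% in this window, with a median of 51.2% over all windows. A match of 5 letters is a description of the sequence only.

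The Matn3 transcript was the member that differed by treatment. It had 191 and 219 counts in OGD replicates 1 and 2, against 16 and 22 counts in control replicates 1 and 2. Both OGD libraries were high and both control libraries low, with no overlap between groups. The tables list it at 7.93 and 9.06 FPKM in OGD and at 0.664 and 0.864 FPKM in control libraries. FPKM is the authors' count scaled to transcript length and library total. In CPM normalised over tested loci, the level was 81.6 ± 13.7 in OGD and 7.29 ± 2.08 in control libraries (SD, n = 2 each).

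Taken library by library, Matn3 was 12.4-fold higher in OGD than in control among number 1 libraries, with a 95% exact binomial interval of 7.42 to 22.1. Among number 2 libraries it was 10.4-fold higher, with an interval of 6.71 to 17.0. These intervals, like all such intervals here, cover counting error only. The fitted log2 fold change was 3.48 (SE 0.32), which ranked 41 by size among the 9581 tested loci. The OGD libraries both lay above the control libraries at 14.0% of tested loci. The difference by replicate number was smaller at this transcript, at 1.27-fold (interval 1.04 to 1.55) in OGD and 1.51-fold (interval 0.755 to 3.07) in control libraries.

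Of the mural cell marker names, 2 of 8 matched loci, and 1 of them, Abcc9, divided by treatment as Matn3 did. Abcc9, a potassium channel subunit gene, had 85 and 54 counts in OGD against 6 and 17 in control libraries. Myh11, a smooth muscle myosin gene, had 32 and 58 counts in OGD and 36 and 31 in control libraries, so its groups overlapped. Neither was at 0 in any library, and neither passed edgeR's threshold by treatment (adjusted p = 1.00 each). Together they summed to 44.1 and 46.7 CPM in OGD and 15.3 and 19.1 CPM in control libraries, a difference carried mostly by Abcc9. Among 4 matched neuron loci, Syn1, a synaptic vesicle gene, had 98 and 45 counts in OGD against 2 and 1 in control libraries (adjusted p = 0.185 in edgeR). The other neuron loci did not follow it. Gria2, a glutamate receptor gene and the highest of them, had 187 and 222 counts in OGD and 223 and 275 in control libraries. Rbfox3, a neuronal splicing factor gene, had 6 and 19 counts in OGD and 19 and 20 in control libraries, and Syt1 had 1 in each OGD library and 2 and 4 in control libraries. With Syn1 included, the neuron list summed to 110.0 and 119.7 CPM in OGD and 89.5 and 119.5 CPM in control libraries. Endothelial names summed to at most 2.92 CPM in any library. The part of mural cells or neurons in the Matn3 difference was not tested.

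The Lox transcript divided by replicate number instead. It had 4 counts in OGD replicate 1 and 2684 in OGD replicate 2, and 4 counts in control replicate 1 and 3202 in control replicate 2. Both number 2 libraries were high and both number 1 libraries near 0, in each group. The tables list 209.5 and 237 FPKM for the OGD and control library of number 2, against 0.313 FPKM in each number 1 library. The level averaged 1197 ± 111 CPM over number 2, with 1.48 ± 0.0361 CPM over number 1 libraries (SD, n = 2 each). Number 2 libraries lay above number 1 libraries without overlap at 23.6% of tested loci.

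Within OGD, the number 2 library was 743-fold above the number 1 library at Lox, with a counting interval of 289.7 to 2728. Within control libraries it was 876-fold above, with an interval of 342 to 3219. The fitted log2 fold change of 9.61 (SE 0.19) ranked 1 by size among all tested loci. Besides Lox, 1 other locus, tawsho, had at most 10 counts in both number 1 libraries and at least 1000 in both number 2 libraries. It was singled out after its values were seen. The opposite division, high in number 1, had 0 such loci. The division by treatment had 1, blermu, which was high in control libraries. The floor of 1000 counts was set to find divisions as large as that of Lox, which had 2684 and 3202 counts in number 2 libraries. With a floor of 30 counts, 12 loci were high in number 2 and 21 in number 1, while 11 were high in OGD and 10 in control libraries, and the crossed divisions held 5 and 13.

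Between OGD and control, Lox differed little within a number. The ratio was 1.04 among number 1 libraries, on 4 counts in each, with an interval of 0.193 to 5.56. It was 0.877 among number 2 libraries, with an interval of 0.833 to 0.924. The group means of 560 ± 790.2 CPM in OGD and 639 ± 901 CPM in control libraries (SD, n = 2 each) therefore each average a library near 0 with a high one. The log2 fold change by treatment was -0.19 (SE 2.85). It depended on single libraries, at -8.69 without OGD replicate 2 and 8.55 without control replicate 2, and at 0.81 without OGD replicate 1 and -1.18 without control replicate 1.

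**Figure D1:**
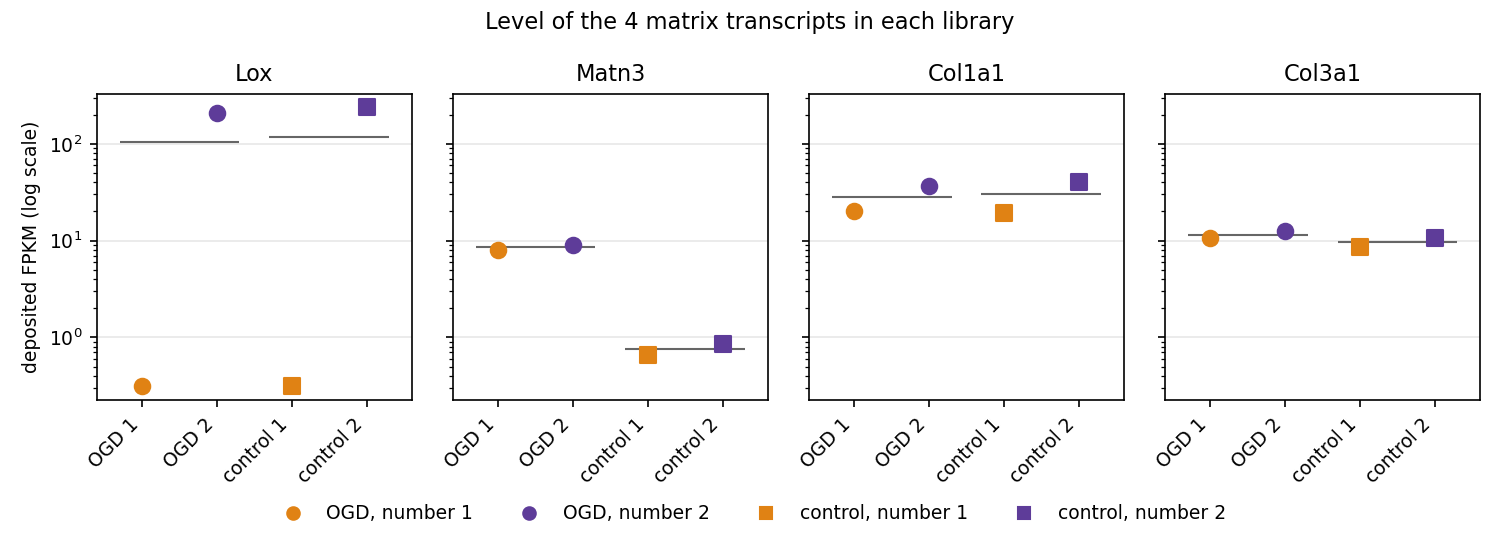
Deposited FPKM (log axis) of the 4 transcripts in each library, with OGD libraries as circles, control libraries as squares, colour for the replicate number and a grey line at the arithmetic mean of each group. Matn3 sits at 7.93 and 9.06 FPKM in OGD and below 1 FPKM in control libraries, whereas Lox is at 0.313 FPKM in both number 1 libraries and above 200 FPKM in both number 2 libraries.

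The Col1a1 transcript also followed the replicate number, by a smaller amount. It had 329 and 593 counts in OGD replicates 1 and 2, and 313 and 693 counts in control replicates 1 and 2. Number 2 libraries were the higher in each group, and treatment groups overlapped. The level averaged 262 ± 20.4 CPM over number 2, with 119 ± 7.09 CPM over number 1 libraries (SD, n = 2 each). The ratio of number 2 to number 1 was 1.99 in OGD (interval 1.74 to 2.29) and 2.42 in control libraries (interval 2.12 to 2.78). The fitted log2 fold change by number was 1.14 (SE 0.14), rank 769 by size.

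By treatment, Col1a1 was 1.09-fold higher in OGD among number 1 libraries (interval 0.929 to 1.27). Among number 2 libraries the ratio was 0.895 (interval 0.801 to 1.00). Averages were 186 ± 87.2 CPM in OGD and 195 ± 115 CPM in control libraries (SD, n = 2 each), and the log2 fold change was -0.07 (SE 0.54). It lay between -0.66, without OGD replicate 2, and 0.71, without control replicate 2. It was 0.35 without OGD replicate 1 and -0.57 without control replicate 1.

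The Col3a1 transcript varied least of the 4. It had 159 and 187 counts in OGD replicates 1 and 2, and 127 and 170 counts in control replicates 1 and 2. Treatment groups overlapped. By number, the range of 170 to 187 counts in number 2 libraries lay just above the range of 127 to 159 in number 1 libraries. Its level averaged 68.9 ± 12.8 CPM in OGD and 57.0 ± 15.2 CPM in control libraries (SD, n = 2 each), a log2 fold change of 0.27 (SE 0.29). By number the averages were 72.9 ± 7.23 CPM over number 2, with 53.1 ± 9.67 CPM over number 1 libraries, and the log2 fold change was 0.46 (SE 0.20). Both collagen transcripts were thus higher in number 2 libraries, Col1a1 by the larger factor. Scaling to the library totals implied by FPKM lowered the median number difference of all tested loci by 0.18 on the log2 scale. From mean deposited FPKM (pseudocount 0.01), which carries that scaling, the log2 fold change was 0.96 for Col1a1 and 0.28 for Col3a1, both still higher in number 2.

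Levels can be compared between the 4 transcripts per length. In both number 1 libraries the order of FPKM was Col1a1, Col3a1, Matn3 and Lox. In both number 2 libraries it was Lox, Col1a1, Col3a1 and Matn3, with averages there of 223 ± 19.5 FPKM for Lox, 38.6 ± 2.81 FPKM for Col1a1 and 11.6 ± 1.21 FPKM for Col3a1 (SD, n = 2). Between the neighbours Col3a1 and Matn3 the gap was narrow in OGD, where Col3a1 averaged 11.6 ± 1.30 FPKM and Matn3 8.50 ± 0.801 FPKM (SD, n = 2). In control libraries Col3a1 averaged 9.63 ± 1.60 FPKM and Matn3 0.764 ± 0.141 FPKM. In FPKM, Col1a1 was 1.91 and 2.93 times Col3a1 in OGD replicates 1 and 2, and 2.28 and 3.77 times Col3a1 in control replicates 1 and 2.

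The sum of squares of log2(CPM + 1) over the 4 libraries was split into a part by treatment, a part by number and a crossed rest. At Matn3, 98.3% of it went with treatment. At Lox 99.98% and at Col1a1 98.5% went with number, as did 70.6% at Col3a1, where 27.0% went with treatment. The median tested locus had 19.2% with treatment and 40.8% with number. The SD over the 4 libraries was 5.15 at Lox, 1.94 at Matn3, 0.66 at Col1a1 and 0.315 at Col3a1, on the log2 scale, beside a median of 0.315 over tested loci.

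**Figure D2:**
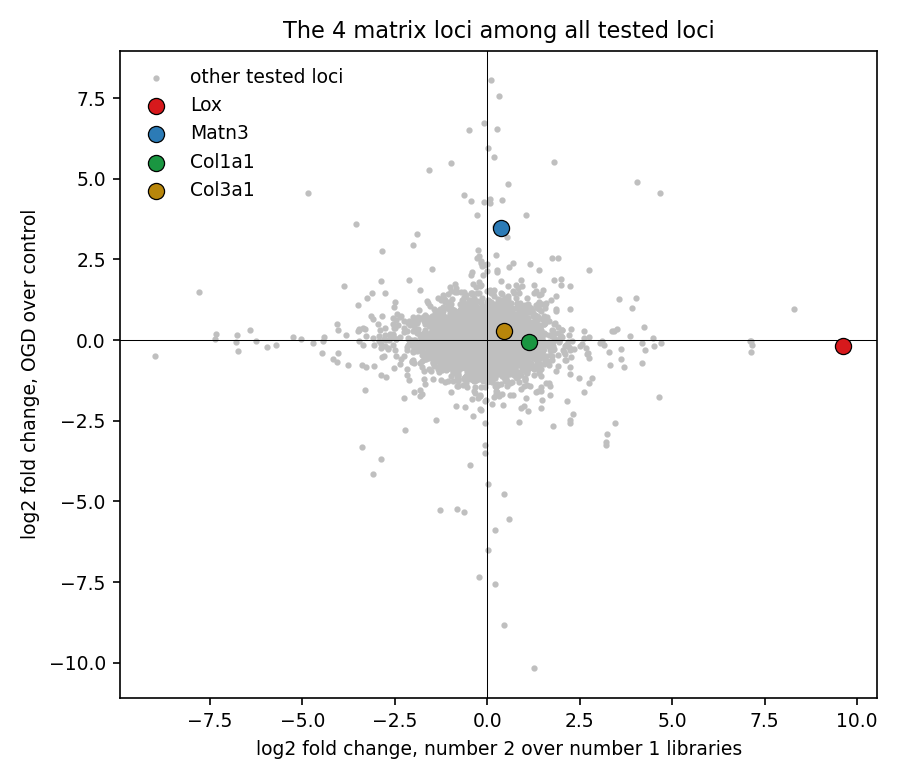
Each dot is one of the 9581 tested loci, placed by its log2 fold change of number 2 over number 1 libraries (x axis) and of OGD over control (y axis). Matn3 lies high on the treatment axis at 3.48, Lox far right on the number axis at 9.61, Col1a1 at 1.14 on the number axis and Col3a1 close to the centre.

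Summed levels of several marker lists differed by replicate number beside the collagens. Of the tested marker loci that are not members, 0 passed edgeR's adjusted threshold by number, beside 1.33% of all tested loci. With so few marker loci and so small a share, that count is no result about the markers. Of the 13 fibroblast and meningeal marker names, 4 matched loci: Col1a1 and Col3a1 themselves, Fn1, the fibronectin gene, and Thy1. None of the 4 was at 0 in any library. Without the collagens, the list summed to 1267 and 1394 CPM in the number 2 libraries of OGD and control, against 914 and 525 CPM in the number 1 libraries. Fn1 made up most of it, with 3028 and 3494 counts in number 2 and 2415 and 1428 counts in number 1 libraries. Thy1, low throughout, ran the other way, with 10 and 4 counts in number 2 and 12 and 14 in number 1 libraries. The astrocyte names ran the other way, at 33.8 and 34.3 CPM in number 2, against 64.4 and 51.0 CPM in number 1 libraries. Most of that difference came from Gfap, with 51 and 61 counts in number 2 and 139 and 100 in number 1 libraries. Aldoc, Slc1a2 and Slc1a3 were also lower in number 2, at low counts, whereas Glul had 7 counts in OGD replicate 2 alone. The microglia and macrophage names summed to 35.9 and 43.4 CPM in number 2, against 10.9 and 28.4 CPM in number 1 libraries, mostly from Ptprc, the CD45 gene. The oligodendrocyte lineage names summed to 10.0 and 17.1 CPM in number 2, against 7.91 and 8.01 CPM in number 1 libraries. Neither Fn1 nor Gfap passed the threshold by number, with adjusted p = 0.186 and adjusted p = 0.163 in edgeR. The part of other cell types in the collagen difference was not tested.

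Listed transcripts around the 4 genes were read next. No other listed transcript overlapped any of the 4. The nearest to Lox, at Sncaip, lay 345 kb away, and that nearest to Col1a1 4.81 kb away. Within 1 Mb of Lox there were 8 transcripts, 2 of which averaged at least 20 counts. Their log2 ratios of number 2 to number 1 were -0.13 and -0.05, against 8.92 for Lox on the same log2(mean CPM + 1) scale. Of the 9 within 1 Mb of Matn3, 3 had such counts, with log2 ratios of OGD to control from 0.04 to 0.23, against 3.32 for Matn3. Around Col1a1, 15 of 41 had such counts, and their log2 ratios by number ran from -1.96 to 1.05, against 1.13 for Col1a1. Around Col3a1, 5 of 9 did, from -0.11 to 0.42 by number, against 0.45 for Col3a1.

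**Figure D3:**
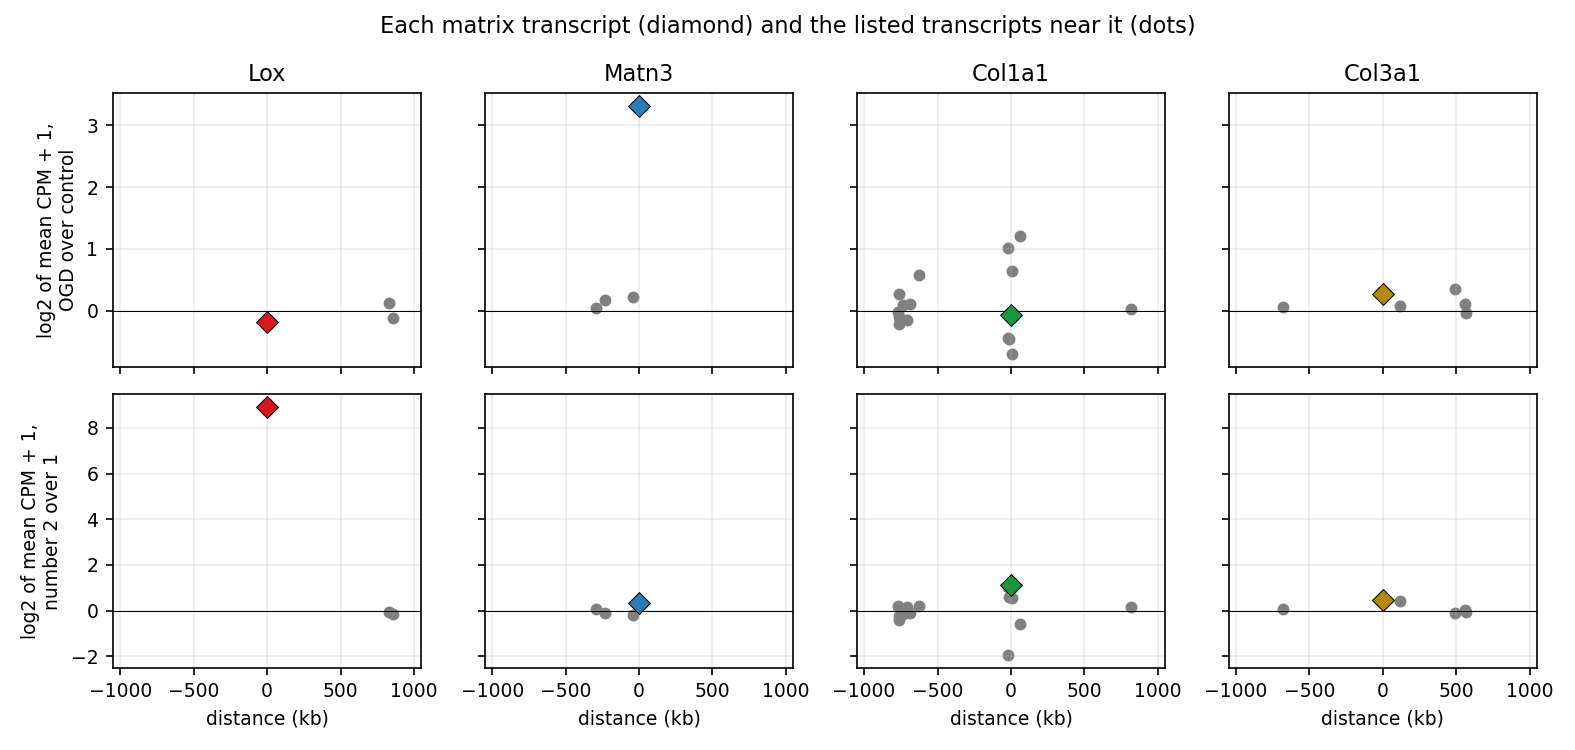
Log2 ratios of mean CPM + 1 of OGD to control (upper row) and of number 2 to number 1 libraries (lower row) for each of the 4 transcripts (diamonds) and for the listed transcripts averaging at least 20 counts within 1 Mb (dots), against distance in kb. The dots near Lox and Matn3 stay between -0.21 and 0.23 on both scales, while their diamonds reach 8.92 (Lox, by number) and 3.32 (Matn3, by treatment).

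Loci with a gene symbol whose profile over the 4 libraries came closest were found by Euclidean distance between centred log2(CPM + 1) values. Closest to Matn3 were Fars2 at a distance of 0.55 and Phldb3 at 0.62, followed by Abcc9, Cox7a2l and Plagl2. Fars2 had 49 and 66 counts in OGD and 2 in each control library. Closest to Lox, though far at 5.02, was Txnl1, with 48 and 26 counts in number 2 and 0 in both number 1 libraries. Pgm2l1 at 5.53, Myeov2 at 5.62 and Shoc2 at 5.83 lay farther still. Closest to Col1a1 were Vamp5 at 0.11, Gosr1, Ncor1, Psap and Scpep1. Closest to Col3a1 were Cic at 0.06, Dtnb, Zfyve16 and Rnf111. With 4 libraries many loci share a profile, and a small distance is a description only.

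Other loci were taken from 10 lists, which cover matrix genes, TGF-beta signalling and HIF targets. In these lists 75 further loci matched by name and 47 had enough counts to be tested. The TGF-beta signalling list holds 6 of the tested loci and the HIF list 3, Vegfa among them. After OGD, 0 of the 47 passed edgeR's adjusted threshold of 0.05, 0 had an unadjusted p under 0.05 and DESeq2 called 0. Of all tested loci, 0.0835% passed in edgeR (0.0417% higher and 0.0417% lower in OGD), 2.33% had an unadjusted p under 0.05 and 0.404% were called by DESeq2. Their log2 fold changes had a median of -0.06, with 22 above 0 and 25 below, beside a median of 0.00 over all tested loci. The 3 with the smallest p, of those with at least 20 counts on average in a group, were Mmp14, Fkbp14 and Ctage5. None of them passed. Mmp14, a membrane-bound collagenase gene, had 148 and 130 counts in OGD and 172 and 212 in control libraries. Its fold change was -0.42 on the log2 scale (SE 0.24, adjusted p = 1.00 in edgeR). Fkbp14, a collagen chaperone gene, stood at -0.52 (SE 0.33), and Ctage5, now Mia2, of the collagen export site, at 0.43 (SE 0.30). An exact two-sided permutation test on 2 libraries against 2 cannot go below 0.333.

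By replicate number, 3 of the 47 passed edgeR's adjusted threshold, 2 higher and 1 lower in number 2, and 15 had an unadjusted p under 0.05. Of all tested loci, 1.33% passed, 0.825% higher and 0.501% lower in number 2, and 16.5% had an unadjusted p under 0.05. The transcripts at P4ha3, the gene of a catalytic subunit of collagen prolyl 4-hydroxylase, rose to 2242 and 2877 counts in the number 2 libraries of OGD and control, against 983 and 1156 counts in the number 1 libraries. The averages were 1041 ± 150 CPM over number 2, with 396 ± 35.7 CPM over number 1 libraries (SD, n = 2 each). The fold change was 1.40 on the log2 scale (SE 0.15, adjusted p = 0.0220 in edgeR). Of 2 transcripts summed at P4ha3 (chromosome 1, 165321247 to 165330922), 1 carried nearly all counts.

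Vegfa, the gene of the angiogenic growth factor and a HIF target, rose as well, to 2197 and 2142 counts in number 2 against 756 and 952 in number 1 libraries. Its averages were 885 ± 44.2 CPM over number 2, with 316 ± 43.6 CPM over number 1 libraries (SD, n = 2 each), and the fold change was 1.49 on the log2 scale (SE 0.14, adjusted p = 0.0184 in edgeR). Tnr, the gene of tenascin-R, a glycoprotein of perineuronal nets, fell to 119 and 163 counts in number 2 libraries, against 429 and 367 in number 1 libraries. Its log2 fold change was -1.36 (SE 0.20, adjusted p = 0.0491 in edgeR). Tnr no longer passed without OGD replicate 1, without OGD replicate 2, with DESeq2 size factors or with treatment as a block. DESeq2 returned an adjusted p for 39 of the 47 and called 7 of them: these 3, Col12a1, Gpc4, Itgb8 and Wisp1, while over all loci it called 6.38% of those with an adjusted p. Over the 47, the median log2 fold change by number was 0.27, with 33 above 0 and 14 below, beside a median of -0.01 over all tested loci.

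Collagen chain loci other than the members numbered 11, of which 7 were tested and 0 passed edgeR in either comparison, with 0 by treatment and 1 by number at an unadjusted p under 0.05. DESeq2 called 0 by treatment and 1, Col12a1, by number. Of all tested loci, 0.0835% by treatment and 1.33% by number passed edgeR, and 2.33% and 16.5% had an unadjusted p under 0.05. DESeq2 called 0.404% by treatment and 6.38% by number of the loci given an adjusted p. By number, 6 of the 7 lay above 0, with a median log2 fold change of 0.27, beside 4705 of 9581 tested loci above 0. Col12a1, of a fibril-associated collagen, was the most abundant in counts, with 6433 and 6511 in number 2 and 5429 and 5258 in number 1 libraries (log2 fold change 0.41, SE 0.10, adjusted p = 0.126 in edgeR). Col16a1, summed over 6 transcripts, had 569 and 786 counts in OGD and 135 and 623 in control libraries, where control replicate 1 was the low one. Col27a1, singled out after its values were seen, followed neither label, with 171 counts in OGD replicate 1 and 184 in control replicate 2, against 21 in OGD replicate 2 and 12 in control replicate 1. Col4a1, of basement membranes, had 207 and 179 counts in OGD and 234 and 215 in control libraries.

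In collagen processing and cross-linking, 11 loci other than Lox matched and 9 were tested. P4ha3 was the 1 that passed by number, and 0 passed by treatment, beside 1.33% and 0.0835% of all tested loci. The median log2 fold changes were -0.13 by treatment and 0.13 by number. Serpinh1, the gene of the collagen chaperone HSP47, had 58 and 55 counts in number 2 and 28 and 37 in number 1 libraries (adjusted p = 0.188 in edgeR). P4ha2, of the same enzyme family as P4ha3 and a HIF target, had 173 and 166 counts in number 2 and 157 and 213 in number 1 libraries. Among matrilins, cartilage matrix and small leucine-rich proteoglycans, Matn2 was the 1 locus tested besides Matn3. It had 51 and 27 counts in OGD and 38 in each control library, a log2 fold change of 0.08 (SE 0.37).

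Of brain matrix proteoglycans and their partners, 7 loci were tested, with Tnr passing by number and a median log2 fold change of 0.24 by number and -0.06 by treatment. Basement membrane, fibronectin and elastic fibre loci numbered 5 tested, with 0 passing edgeR in either comparison. DESeq2 called 0 of 5 by treatment and 0 of the 4 to which an adjusted p was given by number. By number 2 had an unadjusted p under 0.05 and by treatment 0, beside 16.5% and 2.33% of all tested loci. The median was 0.44 by number and 0.01 by treatment. Fn1 in this list stood at 0.89 (SE 0.26) by number and 0.18 (SE 0.50) by treatment. Both tested matricellular loci were above 0 by number: Wisp1, now Ccn4, at 0.99 (SE 0.19, adjusted p = 0.0837 in edgeR) and Smoc1 at 0.44 (SE 0.12, adjusted p = 0.160 in edgeR). By edgeR neither passed, and DESeq2 called Wisp1.

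**Figure D4:**
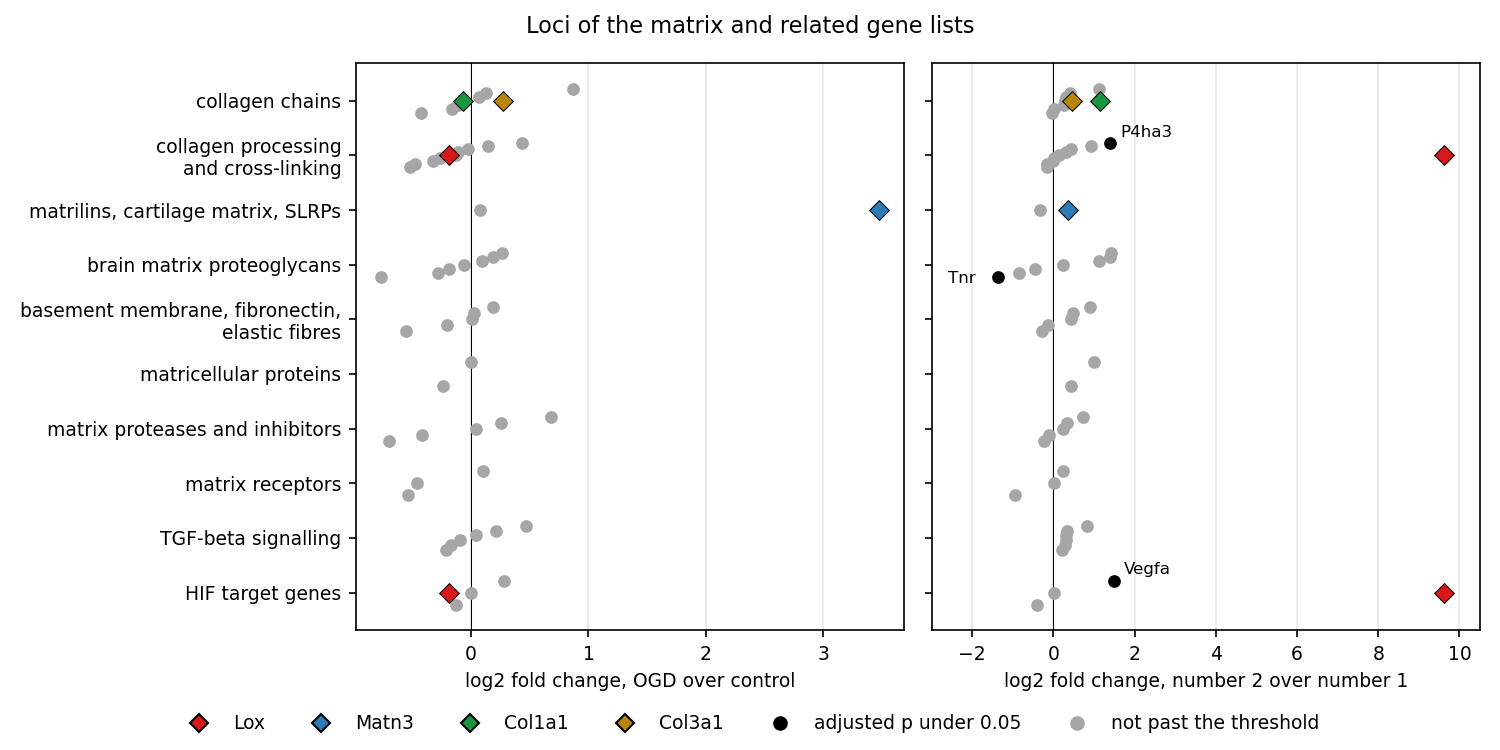
Log2 fold changes of OGD over control (left) and of number 2 over number 1 libraries (right) for tested loci of the 10 lists, with the 4 members as diamonds and other loci as dots, black where edgeR's adjusted p was under 0.05. In the left panel Matn3 at 3.48 lies apart from dots between -0.77 and 0.87, and in the right panel P4ha3, Vegfa and Tnr are the black dots.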

How the data were processed

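The authors deposited 1 table per library with whole-number read counts and FPKM per listed transcript, per the file headers. HISAT2, StringTie and the mouse build mm9 are named in the submitters' processing notes, whereas the tables hold rat identifiers, so coordinates are printed as listed, without a build. The members and the lists were chosen with earlier results of these data known.

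From the counts, transcripts sharing a gene name on 1 chromosome were summed to 17290 loci. Of these, 9581 passed filterByExpr. Tests used edgeR 4.0.16 under R 4.3.3 (TMM, quasi-likelihood F test, Benjamini-Hochberg over all tested loci), by treatment alone and by replicate number alone. Each SE is approximate, the size of the log2 fold change over the root of F. CPM carry the TMM factors. Deposited FPKM served for levels per length. Single-library ratios used TMM-scaled totals and exact 95% binomial intervals. RefSeq tables gave current names, lists were matched by listed or current name, and figures used matplotlib 3.10.9. The steps were tested on simulated counts. Alternatives were DESeq2 1.42.0, its size factors, no filter, transcripts as deposited, a replicate block, FPKM for the members, and each library left out.

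The text names all members. Of the lists it names loci past the threshold, the 3 of smallest p per comparison with a mean of at least 20 counts in a group, loci from the 5 profiles nearest each member (some are not reported here) and the highest marker of a list. Other names illustrate a list and were chosen after their values were seen.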

Additional observations from a re-analysis of the deposited data

How the results depend on the processing

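Over 10 alternatives each, the log2 fold change of Matn3 by treatment lay between 3.22 and 3.81. By number, Lox lay between 9.43 and 9.71, Col1a1 between 0.96 and 1.22 and Col3a1 between 0.28 and 0.68. The members were chosen by these values, and in the contrast given here the libraries of the sides do not overlap. Their direction could therefore hardly turn, and that it did not is no support for them. The other contrast of a member could turn: Matn3 by number ran from -2.13 without OGD replicate 2 and -0.52 without control replicate 1 to 3.11 without OGD replicate 1. Of all tested loci, 8 passed by treatment; the count was 38 with DESeq2, 0 without a filter (403 at an unadjusted p under 0.05), 1 with transcripts as deposited and 21 with the replicate block. It was 0 to 12 with a library left out, and 0 without control replicate 1, control replicate 2 or OGD replicate 1 (354, 265 and 257 at an unadjusted p under 0.05). By number 127 passed; the count was 457 with DESeq2, 7 without a filter and 49 as deposited, and 141 to 215 with a library left out, the highest without OGD replicate 2. Of the other loci of the 10 lists, 47 were tested, but 74 without a filter, 64 transcripts as deposited and 50 to 52 with a library left out. By treatment 0 passed in edgeR or DESeq2 under every alternative run, with 0 to 3 of the set tested at an unadjusted p under 0.05. By number 3 passed, with 7 by DESeq2, 0 without a filter (15 of 74 at an unadjusted p under 0.05), 1 as deposited (Vegfa) and 2 to 5 with a library left out, the 5 without OGD replicate 1 being Col16a1, Fn1, Gpc4, P4ha3 and Vegfa. What caused these shifts was not tested, but without a filter 16711 loci were tested and leaving out a library leaves 3, the lone library of a side being assumed to vary like the other side. The replicate block changed no call by treatment among the other loci of the 10 lists. Libraries of the same number deviated from their groups with a correlation of 0.304 over tested loci, and the meaning of the number is not given in the labels. At this depth a Lox level of 4 counts carries a wide counting interval.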

Other observations

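Receptor, signalling and hypoxia genes next to the matrix were also read. Of the TGF-beta signalling list, the main pathway that drives collagen synthesis, 6 loci were tested. All 6 (Ski, Skil, Smad2, Smad4, Tgfb2 and Tgfb3) had a log2 fold change above 0 by number, with a median of 0.31. In edgeR 0 passed, and the 1 at an unadjusted p under 0.05 was Ski, with a log2 fold change of 0.30. Of all 9581 tested loci, 4705 lay above 0 by number, 1.33% passed and 16.5% had an unadjusted p under 0.05. DESeq2 gave an adjusted p to 3 of the 6 and called 0 of those. Activators and inhibitors of the pathway were not separated in this list, so whether signalling rose was not tested. Among matrix receptors, Itgb8, an integrin subunit gene, had 172.6 and 204 CPM in number 2 and 399.7 and 330 CPM in number 1 libraries (log2 fold change -0.95, SE 0.16, adjusted p = 0.0659 in edgeR). Of the HIF targets other than Lox, 3 were tested, and their median by number was 0.02, since Pfkfb3 stood at -0.41 and P4ha2 at 0.02 beside Vegfa. By treatment the medians were -0.03 for TGF-beta signalling and -0.46 for 3 receptor loci. They were 0.04 for 5 protease and inhibitor loci and 0.00 for HIF targets. By treatment 0 loci of these lists passed edgeR, 0 had an unadjusted p under 0.05 and DESeq2 called 0. Of all tested loci, 0.0835% passed edgeR and 2.33% had an unadjusted p under 0.05. DESeq2 called 0.404% of loci given an adjusted p.

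Low counts in the tables were often equal in all libraries. Of 769 transcripts whose counts sum to 4 over the libraries, 366 (47.6%) had exactly 1 count in each library. Of the 342 that sum to 8, 68 had 2 counts in each. Among the loci of the matrix lists, 6 of 79 had 1 count in every library: Col8a2, Acan, Efemp1, Ctgf, Itga11 and Itga7. Lox likewise had 4 counts in each number 1 library. Counting intervals take each count as an independent draw, which was not tested here.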
